A study of Rattus norvegicus with 30 samples.

Results

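The genes described are the retinoid receptors and binding proteins: the retinoic acid receptors Rara, Rarb and Rarg, the retinoid X receptors Rxra, Rxrb and Rxrg, the cellular retinoic acid-binding proteins Crabp1 and Crabp2, and Stra6, the cell-surface receptor for retinol-binding protein. They were taken by gene name from a table of 30562 gene rows. All 9 were found, with 1 row each, and all 9 passed the filter on low counts that left 16171 genes for testing. The RNA came from wild-type rat lung cells carrying CD31, a surface protein of endothelial cells, collected with microbeads 3 weeks after an operation. There were 6 groups of 5 libraries: sham surgery on a vitamin A-deficient, control or excess diet, and Glenn surgery on the same diets. Glenn surgery connects a large vein of the upper body directly with a pulmonary artery, after which blood returning from the liver no longer flows straight to that lung. Strain, sex and age are not given in the labels. They also do not say whether the 5 libraries of a group came from separate animals, so p-values measure the spread between these libraries.

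Vitamin A travels in blood as retinol bound to a carrier protein, and Stra6 lets cells take it up. Inside cells retinol is oxidised to retinoic acid, which Crabp2 is known to hand to receptors in the nucleus and Crabp1 is linked to holding back or passing on for breakdown. A retinoic acid receptor (RAR) pairs with a retinoid X receptor (RXR) on repeated DNA half-sites, where it binds corepressors without ligand and coactivators with it, and the RXRs also pair with other nuclear receptors. The gene Rarb is a textbook direct target of retinoic acid, and retinoic acid signalling is known for its part in lung and vessel development.

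The element at which such pairs bind is shown because it is where the receptors meet the genes they control. Promoters from RefSeq (build GRCr8, 250 bases before to 50 after the start of a transcript) were searched on both strands for half-sites (AGGTCA itself, or the variant AGTTCA, or the variant GGTTCA, or the variant GGGTCA) and for a pair of them in the same direction with 5 bases between, the direct repeat DR5. All 9 genes had a promoter entry, Rarg with 2, and of these 10 windows 1 held a DR5, that of Rarb. The same motif was in 0.382% of all 33469 promoter windows. Among 16 genes listed here as induced by retinoic acid, 12 had a promoter entry and 2 held a DR5, Rarb and Cyp26a1, an enzyme that breaks down retinoic acid. Half-sites are in capitals and other bases in lower case. Rarb lies on chr15:11336410-11336438, shown on the strand of the gene, with its repeat at bases 25 to 41 counted from the start of the transcript. Cyp26a1 lies on chr1:244883724-244883752, shown on the strand opposite to the gene, with its repeat at -92 to -76.
Rarb: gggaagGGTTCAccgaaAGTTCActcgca
Cyp26a1: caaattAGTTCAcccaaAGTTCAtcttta
Both repeats have the half-site AGTTCA at the 3′ end and differ in the other one. Single half-sites were in 4 of the 10 windows (those of Rara, Rarb and Stra6 and 1 of the 2 of Rarg) against 44.4% of all windows. Repeats with 1 or 2 bases between half-sites were in 0 of the 10, against 0.233% and 0.17% of all. A match describes letters in these windows and is not a measured site.

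Total estimated counts were 22 to 77.6 M per library (median 40 M). Levels are given as CPM, the count divided by the scaled library size, and are compared only within a gene. The libraries fall in 2 series by library number, 22 in series A and 8 in series B, and both control-diet groups and the sham excess group hold series A only. They also split into 17 with low (up to 44.4 CPM) and 13 with high (from 407 CPM) RT1-CE16, a histocompatibility gene, and all series B libraries were high. The endothelial markers Pecam1, Cdh5, Tie1, Tek, Kdr and Cldn5 were detected in all libraries, and markers of type 2 alveolar epithelium were detected in all as well, with a summed level of 24750 to 59903 CPM. In sorted cells measured in bulk, fewer cells of a type and less RNA per cell cannot be told apart.

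After Glenn surgery the 3 retinoic acid receptors were lower and Crabp2 was higher, while no diet comparison passed the threshold for any of the 9 genes. A change means an adjusted p under 0.05 (edgeR quasi-likelihood test, 1 fit of all libraries with a term for series, adjusted over all 16171 genes). Averaged over diets, 5 of the 9 genes changed with surgery, 1 higher and 4 lower, where 48.2% of all genes changed (23.4% higher, 24.7% lower). Rarg fell by 0.73, Rxrg by 0.72, Rarb by 0.57 and Rara by 0.39 on the log2 scale, and Crabp2 rose by 1.59. The median log2 change of the 9 was -0.22, against -0.01 over all genes tested.

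**Figure D1:**
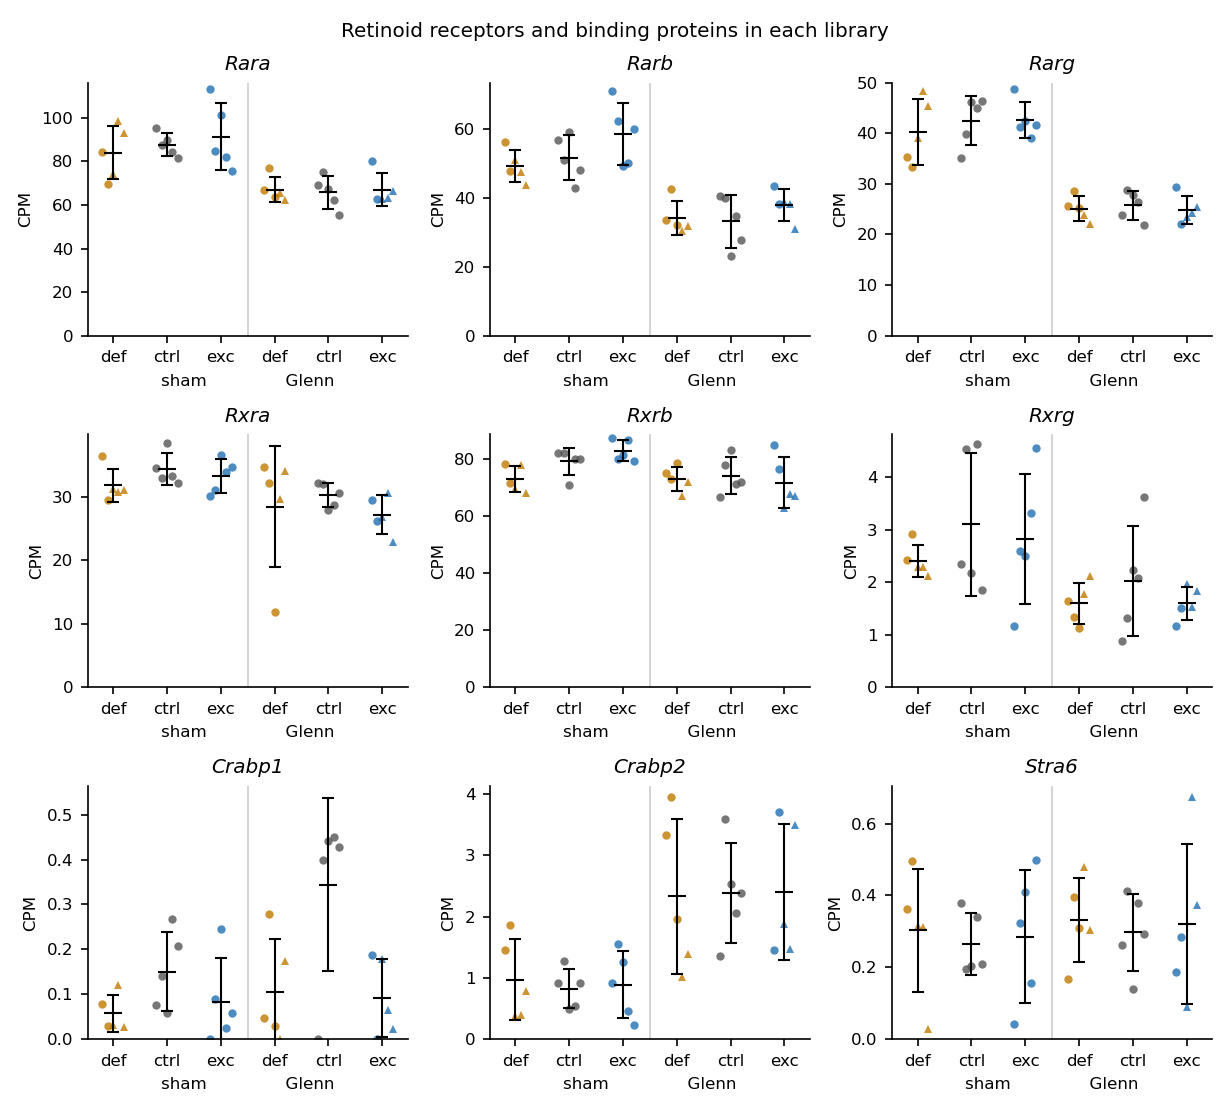
Level of each of the 9 genes in every library, in CPM on linear axes that start at 0, by diet (def, deficient; ctrl, control; exc, excess), with sham groups left of the grey line and Glenn groups right of it. Circles are series A and triangles series B libraries, long bars are means of 5 libraries and whiskers SD, drawn down to 0 at most; all Rarg libraries after sham lie above all after Glenn surgery (33.3 to 48.7 against 21.8 to 29.3 CPM).

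Rarg (ENSRNOG00000012499), one of the 3 receptors that bind retinoic acid, gave the clearest separation. After sham surgery it stood at 35.3, 33.3, 39.0, 48.3 and 45.4 CPM on the deficient diet, at 35.2, 39.8, 46.1, 45.1 and 46.3 CPM on the control diet, and at 48.7, 41.2, 42.5, 39.1 and 41.7 CPM on the excess diet. After Glenn surgery it stood at 25.7, 28.6, 25.2, 23.8 and 22.0 CPM on the deficient diet, at 23.9, 28.8, 27.8, 26.4 and 21.8 CPM on the control diet, and at 29.3, 22.0, 23.5, 24.3 and 25.5 CPM on the excess diet. Every library after Glenn surgery was below every library after sham, on each diet and over all diets, whereas the diets overlapped throughout. Such separation over all 30 libraries was found in 5.83% of all genes (2.73% with Glenn lower), and Rarg was the only one of the 9 genes to show it. The level went from 41.8 ± 4.86 to 25.3 ± 2.53 CPM (SD over 15 libraries each), a fall of 39.7% (log2 change -0.73, SE 0.06, edgeR adjusted p 4.62e-11). By diet the log2 changes were -0.72 with control, -0.67 with deficient and -0.79 with excess food (edgeR adjusted p 4.8e-06, 2.04e-05 and 8.91e-06). Rarg thus passed the threshold on each diet. On the deficient diet the change was -0.37 with series A libraries alone and -0.37 with RT1-CE16-low libraries alone, and did not pass the threshold in either (edgeR adjusted p 0.0821 and 0.0693). Those fits hold 2 sham and 3 Glenn libraries of that diet. Averaged over diets Rarg changed by -0.60 in series A and by -0.52 in RT1-CE16-low libraries, both past the threshold. The median of Rarg in libraries with high against low RT1-CE16 was 45.8 against 39.8 CPM with sham and 23.8 against 26.8 CPM with Glenn surgery, so it differed in opposite directions.

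Rarb (ENSRNOG00000024061), the receptor whose own promoter holds the repeat shown above, also fell. After sham surgery it stood at 56.2, 47.7, 51.0, 47.4 and 43.9 CPM on the deficient diet, at 56.9, 51.1, 59.1, 42.9 and 48.1 CPM on the control diet, and at 71.1, 62.2, 49.1, 50.2 and 60.1 CPM on the excess diet. After Glenn surgery it stood at 33.5, 42.7, 32.3, 30.4 and 32.0 CPM on the deficient diet, at 40.6, 40.1, 23.1, 34.7 and 27.8 CPM on the control diet, and at 43.6, 38.2, 38.7, 38.1 and 30.9 CPM on the excess diet. Within each diet no Glenn library reached a sham library, but over all diets the highest Glenn library (43.6 CPM) passed the lowest sham library (42.9 CPM). The mean went from 53.1 ± 7.67 to 35.1 ± 5.82 CPM (SD over 15 libraries each). The fitted log2 difference was -0.57 (SE 0.08, adjusted p of 2.52e-07 by edgeR). By diet the log2 changes were -0.64 with control, -0.57 with deficient and -0.52 with excess food (edgeR adjusted p 0.000377, 0.00148 and 0.00827). Rarb thus passed the threshold on each diet. In series A alone it changed by -0.52 with deficient and -0.51 with excess food, neither past the threshold (edgeR adjusted p 0.0902 and 0.0882). Among RT1-CE16-low libraries it was -0.63, -0.52 and -0.51 on control, deficient and excess food, with edgeR adjusted p of 0.0707, 0.111 and 0.113. These fits hold fewer libraries.

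Rara (ENSRNOG00000009972), the most widely expressed of the retinoic acid receptors in the body, fell less. After sham surgery it stood at 84.4, 69.5, 74.2, 98.6 and 93.2 CPM on the deficient diet, at 95.3, 87.4, 89.6, 84.5 and 81.4 CPM on the control diet, and at 113, 84.8, 101, 81.9 and 75.7 CPM on the excess diet. After Glenn surgery it stood at 66.7, 76.7, 63.8, 65.4 and 62.3 CPM on the deficient diet, at 69.2, 75.1, 67.1, 62.2 and 55.3 CPM on the control diet, and at 80.2, 62.5, 62.7, 63.0 and 66.5 CPM on the excess diet. On the control diet the groups did not overlap, and on the other 2 diets the highest Glenn library lay among the lower sham libraries. The mean went from 87.7 ± 11.4 to 66.6 ± 6.46 CPM (SD over 15 libraries each). The fitted log2 difference was -0.39 (SE 0.06, adjusted p of 4.33e-06 by edgeR). By diet the log2 changes were -0.41 with control, -0.33 with deficient and -0.43 with excess food (edgeR adjusted p 0.00385, 0.0207 and 0.00722). Rara thus passed the threshold on each diet. On the deficient diet the change was -0.15 both in series A and in RT1-CE16-low libraries (edgeR adjusted p 0.565 and 0.564), and it also did not pass without sham replicate 4 (-0.27), sham replicate 5 (-0.29) or Glenn replicate 5 (-0.30) of that diet. On the excess diet it did not pass in series A (-0.35), in RT1-CE16-low libraries (-0.35) or when only its 2 groups were fitted (-0.35). Among RT1-CE16-low libraries on the control diet it was -0.36 (edgeR adjusted p 0.167).

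Of the RXRs, the partners shared by many nuclear receptors, Rxrg changed and the other two did not pass the threshold. Rxrg (ENSRNOG00000004537) had 34 to 257 counts per library. After sham surgery it stood at 2.43, 2.92, 2.29, 2.29 and 2.13 CPM on the deficient diet, at 2.35, 4.54, 2.18, 4.64 and 1.85 CPM on the control diet, and at 1.18, 2.59, 2.51, 3.33 and 4.56 CPM on the excess diet. After Glenn surgery it stood at 1.64, 1.35, 1.12, 1.77 and 2.13 CPM on the deficient diet, at 0.891, 1.33, 2.23, 2.08 and 3.62 CPM on the control diet, and at 1.16, 1.51, 1.96, 1.54 and 1.84 CPM on the excess diet. The control-diet groups and the sham excess group spread over several fold, and the deficient groups were narrower. The deficient groups did not overlap, but the highest Glenn library (2.128 CPM) all but met the lowest sham library (2.130 CPM). The mean went from 2.78 ± 1.04 to 1.75 ± 0.653 CPM (SD over 15 libraries each). The fitted log2 difference was -0.72 (SE 0.20, adjusted p of 0.00334 by edgeR). No diet alone reached the threshold, at -0.62 with control, -0.57 with deficient and -0.95 with excess food (edgeR adjusted p 0.176, 0.215 and 0.0679). Single libraries decided some of these calls: without Glenn replicate 5 on the control diet the change was -0.93 (edgeR adjusted p 0.0399). On the excess diet it was -1.15 without sham replicate 1 (edgeR adjusted p 0.0209). It also passed there without Glenn control replicate 1 (-0.95), with DESeq2 (-0.94) and with RT1-CE16 level in place of series (-0.99).

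Rxra (ENSRNOG00000009446), the main RXR of liver and skin, ranged from 29.4 to 38.5 CPM after sham surgery (33.1 ± 2.64, SD over 15 libraries). After Glenn surgery 14 of the 15 libraries lay at 22.9 to 34.7 CPM and 1, replicate 3 on the deficient diet, at 11.8 CPM. Groups did not overlap on the control diet, where the sham libraries (32.2 to 38.5 CPM) and the Glenn libraries (28.0 to 32.2 CPM) met without crossing. Averaged over diets the log2 change was -0.22 (SE 0.09, 95% interval -0.41 to -0.02, edgeR adjusted p 0.0598), and by diet -0.18, -0.15 and -0.32 on control, deficient and excess food. Without the library at 11.8 CPM the averaged change was smaller, at -0.13, with less spread, and passed the threshold (edgeR adjusted p 0.0239), while that on the deficient diet was 0.031 and that on the excess diet, -0.26, passed (edgeR adjusted p 0.0329). Leaving out another library of that group, replicate 1, 2 or 5, also brought the averaged change past the threshold (-0.26, -0.24 and -0.23). That library also stood apart from its group in 298 genes, 1.84% of those tested, where the share over libraries ran from 0.414% to 3.01%.

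Rxrb (ENSRNOG00000000464), the RXR found in nearly all tissues, ranged from 67.9 to 87.4 CPM with sham and from 62.7 to 84.8 CPM with Glenn surgery. The means were 78.3 ± 5.89 and 73.0 ± 6.37 CPM (SD over 15 libraries each). The fitted log2 difference was -0.08 (SE 0.04, 95% interval -0.16 to -0.01, adjusted p of 0.0735 by edgeR). By diet the log2 changes were -0.09, -0.03 and -0.12 on control, deficient and excess food, and the groups overlapped. With no series term Rxrb passed on excess food, at -0.21 (edgeR adjusted p 0.0294). The averaged change passed the threshold with no series term (-0.10) and with RT1-CE16 level in place of series (-0.09). It also passed without sham deficient replicate 2, sham control replicate 3, Glenn control replicate 3 or Glenn excess replicate 1 (-0.10 to -0.09). Beside it, the median of Rxrb was lower in libraries with high RT1-CE16, at 74.3 against 81.4 CPM with sham and 67.7 against 77.2 CPM with Glenn surgery. Its part in the surgery comparison was not tested beyond these fits. In RefSeq's GRCr8 table the span of Rxrb overlaps that of Slc39a7, and its estimated counts were not whole numbers in 30 of 30 libraries, so reads may have been shared between the 2 genes.

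Crabp2 (ENSRNOG00000022101), the carrier of retinoic acid to the nucleus and itself a gene induced by retinoic acid, was the one member that rose. It had 8 to 279 counts per library. After sham surgery it stood at 1.45, 1.87, 0.377, 0.385 and 0.785 CPM on the deficient diet, at 0.908, 1.27, 0.494, 0.534 and 0.911 CPM on the control diet, and at 0.909, 1.56, 1.25, 0.464 and 0.234 CPM on the excess diet. After Glenn surgery it stood at 3.33, 3.95, 1.97, 1.01 and 1.39 CPM on the deficient diet, at 1.36, 3.60, 2.53, 2.06 and 2.38 CPM on the control diet, and at 1.45, 3.70, 1.87, 1.48 and 3.50 CPM on the excess diet. The groups did not overlap on the control diet, and on the other 2 diets the lowest Glenn libraries lay among the higher sham ones. The mean went from 0.893 ± 0.494 to 2.37 ± 0.999 CPM (SD over 15 libraries each), a fitted 3.01-fold rise (log2 change 1.59, SE 0.25, edgeR adjusted p 5.06e-06). By diet the log2 changes were 1.53 with control, 1.11 with deficient and 2.13 with excess food (edgeR adjusted p 0.00724, 0.0524 and 0.00159). The deficient diet was the one on which Crabp2 missed the threshold. Beside this, the fitted difference of Crabp2 between series (B minus A) was -1.07 on the log2 scale (SE 0.36, edgeR adjusted p 0.13). The median of Crabp2 in libraries with high against low RT1-CE16 was 0.514 against 1.25 CPM with sham and 1.87 against 2.93 CPM with Glenn surgery. Series B makes up 3 of 5 sham and 2 of 5 Glenn libraries on the deficient diet and 3 of 5 Glenn but 0 sham libraries on the excess diet. No member passed the threshold for series, where 1.64% of all genes did. On the excess diet the change was 1.55 and not past the threshold both with only the 2 groups fitted (edgeR adjusted p 0.111) and among RT1-CE16-low libraries (edgeR adjusted p 0.0666). On the control diet it was 1.21 among RT1-CE16-low libraries (edgeR adjusted p 0.282). On the deficient diet it passed in 7 alternatives, from 1.04 with only the 2 groups fitted to 1.26 without the series term. It also passed there without any 1 of 8 libraries: sham deficient replicate 2, sham excess replicates 2 and 5, Glenn deficient replicates 3 and 4, Glenn control replicate 1, and Glenn excess replicates 1 and 5 (1.07 to 1.31).

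Crabp1 (ENSRNOG00000023633) and Stra6 (ENSRNOG00000008312) were close to the limit of detection. Crabp1 had 0 to 31 counts per library, with 0 in 4 of the 30. A count of 0 in these 4 allows up to 3 counts, or 0.062 to 0.0786 CPM, which covers counting error only. Crabp1 was highest after Glenn surgery on the control diet, at 0.400, 0.442, 0.450 and 0.427 CPM in 4 libraries and 0 in the other. That library, replicate 1, stood apart from its group in 486 genes, 3.01% of those tested and the most of any library. The highest value of Crabp1 in any other group was 0.279 CPM. Its averaged log2 change with surgery was 0.72 (SE 0.56, edgeR adjusted p 0.304). Stra6 had 1 to 32 counts per library, with group means of 0.265 to 0.331 CPM. Its averaged log2 change was 0.16 (SE 0.36, 95% interval -0.58 to 0.89, edgeR adjusted p 0.752), and was -0.21 in series A and -0.28 in RT1-CE16-low libraries. The 95% interval of the Crabp1 change was -0.43 to 1.87, so for both genes the data leave room for changes in either direction.

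Taken diet by diet, surgery raised 1 and lowered 3 of the 9 genes on control food, where 24.9% of all genes changed (11.8% up, 13.1% down). With deficient food it raised 0 and lowered 3, where 27.4% of all changed (13.7% up, 13.7% down). With excess food it raised 1 and lowered 3, where 21.9% of all changed (11.6% up, 10.4% down). The 3 lower ones were Rara, Rarb and Rarg on each diet, and the higher one was Crabp2. The groups did not overlap for Rara, Rarb, Rarg, Rxra and Crabp2 on the control diet (5 of 9, against 17.2% of all genes), for Rarb, Rarg and Rxrg on the deficient diet (3 of 9, against 19.6%) and for Rarb and Rarg on the excess diet (2 of 9, against 16.3%). The median log2 changes of the 9 were -0.18, -0.15 and -0.32 on control, deficient and excess food, against -0.01, -0.01 and -0.02 over all genes. With series A libraries alone, 0 of the 9 changed on deficient food (15.2% of all genes did) and 2 on excess food (13.6% of all). With RT1-CE16-low libraries alone, Rarg was the 1 gene changed on control food (9.46% of all) and on excess food (13% of all), and 0 changed on deficient food (14.5% of all). Calls were thus fewer over all genes too in these smaller fits.

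The question whether dietary vitamin A moved its own receptors and carriers was asked within each operation, in 3 comparisons after sham and 3 after Glenn surgery. None of the 9 genes changed in any of the 6 (0 of 54 tests; edgeR adjusted p from 0.355 to 1). Of the 54, 1 had an unadjusted p under 0.05. DESeq2 and limma voom also called 0. For excess against control food these methods called 3.28% and 2.32% of all genes after Glenn surgery. After sham surgery they called 1.3% and 0.73%. By edgeR few other genes changed either. The share of all genes called was 0% for deficient against control, 0.241% for excess against control and 0.0124% for excess against deficient diet after sham surgery. After Glenn surgery the shares were 0.00618%, 1.47% and 0% in the same order. The 2 larger of these edgeR shares moved with single libraries and with the series term. For excess against control food after Glenn surgery, 237 genes passed, and from 2 (without Glenn excess replicate 1) to 557 (without Glenn control replicate 1) with 1 library left out, and 19 with no series term. After sham surgery 39 passed, and from 0 (without sham control replicate 3, or sham excess replicate 1 or 2) to 79 (without sham control replicate 1) with 1 library left out. None of the 9 genes passed in any of these fits.

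Rarb came nearest to a diet effect. Its group means ran 49.2 ± 4.64, 51.6 ± 6.57 and 58.5 ± 9.09 CPM after sham surgery, in the order deficient, control, excess, and 34.1 ± 4.89, 33.2 ± 7.68 and 37.9 ± 4.51 CPM with Glenn surgery (SD over 5 libraries each). The excess diet was highest after each operation, by less than the larger SD of the neighbouring groups. Against the deficient diet the log2 difference was 0.14 after sham (95% interval -0.15 to 0.44) and 0.19 after Glenn surgery (-0.08 to 0.45). Against the control diet it was 0.18 (-0.08 to 0.44) and 0.29 (0.0016 to 0.59), the last with an unadjusted p of 0.0489 and an edgeR adjusted p of 0.355. The comparisons of one operation share libraries.

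For Rara and Rarg the intervals of all 6 diet comparisons lay between -0.29 and 0.35 and between -0.34 and 0.35 on the log2 scale, and for Rxrb between -0.17 and 0.24. For Rxra they reached from -0.55 to 0.46. The largest diet difference that these data allow was wider for the low genes, from -1.24 to 1.08 for Rxrg, -1.53 to 1.67 for Crabp2, -1.38 to 1.47 for Stra6 and -3.94 to 2.70 for Crabp1. Rxrb was the one gene whose diet groups did not overlap in any comparison: all sham excess libraries (79.2 to 87.4 CPM) lay above all sham deficient ones (67.9 to 78.1 CPM), as 0.816% of all genes did, or 1.72% counting both directions. The fitted difference was 0.09 (SE 0.07, edgeR adjusted p 1), and without the series term 0.18 (unadjusted p 0.0154, edgeR adjusted p 0.498). The deficient group holds 3 series B libraries and the excess group 0, and the fitted series difference of Rxrb (B minus A) was -0.16 on the log2 scale (edgeR adjusted p 0.13).

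**Figure D2:**
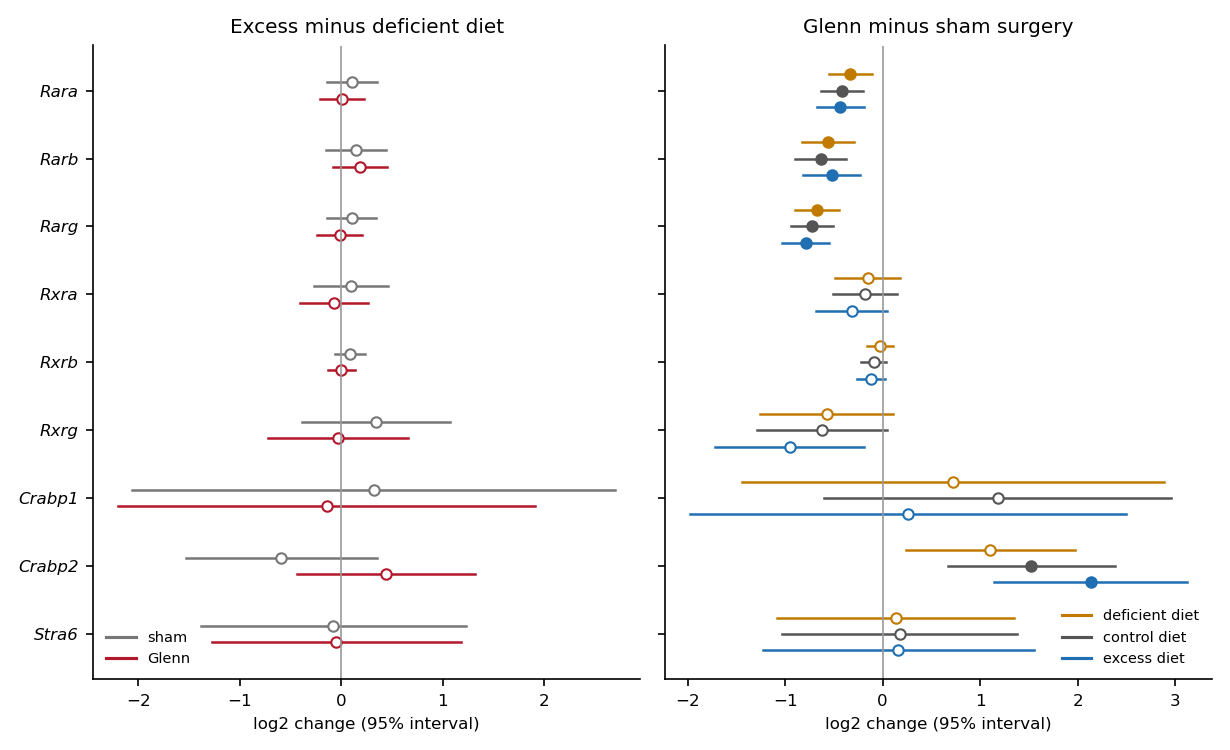
Fitted log2 change of each gene with its 95% interval, for the excess minus the deficient diet after sham and Glenn surgery (left) and for Glenn minus sham surgery on each diet (right). Filled points passed an edgeR adjusted p of 0.05 and open points did not; no diet comparison is filled, while Rara, Rarb and Rarg are filled on all 3 diets and Crabp2 on the control and excess diets.

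In the order of the 6 group means, the 3 sham groups stood above the 3 Glenn groups for Rara, Rarb, Rarg, Rxra and Rxrg, and below them for Crabp2. For Rara, Rarb, Rarg and Crabp2 the step between sham and Glenn groups was the only one between neighbours that exceeded the larger SD. The order within an operation was not the same from gene to gene, with Rarg means of 40.3, 42.5 and 42.6 CPM with sham and 25.1, 25.8 and 24.9 CPM with Glenn surgery, listed as deficient, control, excess. For Rxra, Rxrb, Rxrg and Stra6 no neighbouring groups differed by more than the larger SD, and for Crabp1 only the Glenn control group did, from the sham control group (0.344 and 0.150 CPM). Whether the surgery effect differed between diets was tested as an interaction, and 0 of the 9 genes passed it (edgeR quasi-likelihood test; 0.00618% of all genes did). None had an unadjusted p under 0.05 in that test, the smallest being 0.315. DESeq2 and limma voom called 0 as well, where they called 0.216% and 0.0309% of all genes. The widest apparent difference was that of Crabp2, whose surgery change was 1.03 larger on the excess than on the deficient diet (SE 0.66, 95% interval -0.33 to 2.38, edgeR adjusted p 1).

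Within groups the members did not vary as one set. Over the residuals of 30 libraries from their group and series means, Rara and Rarg went together (Pearson r 0.65) and Rara and Rxrg in opposite directions (-0.62), as did Rarb and Rxrg (-0.54). Rarb and Rarg were less alike (0.14), although both fell with surgery. These values share library composition and depth and are given as description. Over all 30 libraries the genes most like Rarg were Prkce (r 0.95), a protein kinase C, and Arhgef15 (0.95), an exchange factor of endothelial cells. Those most like Rara were Egfl7 (0.92), a protein secreted by endothelial cells, and Klf3 (0.92), and those most like Rarb were Rnf167 (0.92) and Usp30 (0.92). Crabp2 was most like the forkhead gene Foxc1 (0.85) and the ribosomal protein gene Rps18 (0.82), and Rxrg most like Bmp3 (0.84) and Asb15 (0.84). Rxra was most like Tshz1 (0.91) and Ski (0.91), which fell to 0.71 and 0.62 when Glenn deficient replicate 3 was left out. For Rxrb they were Trmt1 (0.83) and Tgds (0.82), for Crabp1 Glo1 (0.73) and Traf4 (0.70), and for Stra6 Tbl1xr1 (0.56) and Cnnm2 (0.54). Over residuals, where group differences are taken out, the nearest genes were Abi3 (0.88) and Klf3 (0.88) for Rara, Carhsp1 (0.82) and Chn2 (0.80) for Rarb, and Ctdsp1 (0.81) and Zdhhc18 (0.79) for Rarg. For Rxra they were Zfp777 (0.94) and Ranbp9 (0.94), which fell to 0.81 and 0.80 without that same library, for Rxrb Polrmt (0.80) and Tgds (0.78), and for Rxrg Gls2 (0.79) and Tjp3 (0.77). For Crabp1 they were Aatf (0.77) and Cop1 (0.72), for Crabp2 Hoxb2 (0.66) and Cyp2f4 (0.66), and for Stra6 Tacr1 (0.65) and Ints4 (0.63). With 1 library left out these fell as low as 0.64 and 0.61 for Crabp1, 0.60 and 0.59 for Crabp2, and 0.56 and 0.57 for Stra6. The values over all libraries fell as low as 0.68 and 0.64 for Crabp1 and 0.45 and 0.44 for Stra6.

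Marker genes of several cell types moved with surgery beside the receptors and Crabp2, and their part in these changes was not tested. The summed level of the 6 endothelial markers had a median of 8835 CPM (7872 to 9961) in sham libraries and 7316 CPM in Glenn libraries (5772 to 8042), with 4 of the 6 lower and 1 higher. The 5 general capillary markers went from a median sum of 7509 CPM (5611 to 8838) to 3330 CPM (2430 to 5692), with 4 lower and 0 higher. Plvap made up most of that sum after sham surgery, with a mean of 5149 CPM, and had 1563 CPM after Glenn surgery. The means of Aplnr went from 909 to 720, of Ptprb from 864 to 713, of Kit from 515 to 346 and of Gpihbp1 from 127 to 138 CPM. The median log2 change of these 5 markers was -0.32. The 9 mural markers, of pericytes and smooth muscle, went from 253 CPM (161 to 328) to 722 CPM (467 to 1690), with 9 higher. The 8 fibroblast markers went from 2319 CPM (1394 to 3432) to 3149 CPM (1962 to 4980), with 7 higher and 0 lower. The 5 lymphatic markers went from 1626 CPM (1002 to 1923) to 3127 CPM (2260 to 4934), with 5 higher, and the 6 type 2 alveolar markers from 42092 CPM (34800 to 59903) to 30108 CPM (24750 to 56230), with 6 lower. Among finer endothelial types, 3 of 5 aerocyte markers were lower and 1 higher (sums of 1007 to 1753 CPM with sham and 710 to 1108 CPM with Glenn surgery), and 3 of 5 venous markers lower and 1 higher (1475 to 2474 and 757 to 2033 CPM). Arterial markers went both ways, 4 of 6 higher and 2 lower (873 to 1240 and 815 to 1582 CPM). Of 5 type 1 alveolar markers 4 were higher and 1 lower (575 to 1003 and 671 to 1858 CPM), of 4 airway markers 1 was higher and 1 lower (1949 to 4097 and 1580 to 4030 CPM), and of 4 mesothelial markers 0 changed (210 to 499 and 142 to 577 CPM). Blood cell markers were low. The 6 leukocyte markers summed to 6.08 to 35.5 and 4.72 to 18.1 CPM, with 1 of 3 tested lower, and the 1 erythroid marker found, Alas2, rose from 0.110 to 0.951 CPM. No marker list had a gene at 0 in all libraries. Within groups, over residuals of 30 libraries, the strongest relation of Rarg was with the endothelial list (r 0.580). Its relation with the 1 erythroid marker was nearly the same (0.577). For Rara and Rarb the strongest relation was with that erythroid marker (0.48 each), against 0.39 and 0.46 with the endothelial list. The strongest relation of Crabp2 was with the airway list (0.62), and that of Rxra with the mural list (-0.55). For Rxrb it was the type 1 alveolar list (-0.59) and for Crabp1 the arterial list (-0.52). For Rxrg it was the type 2 alveolar list (0.48) and for Stra6 the mesothelial list (0.30). The value of Rxra was not recomputed without Glenn deficient replicate 3, its lowest library.

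The other genes of the pathway were taken from lists of carriers, enzymes, receptor cofactors, RXR partners and retinoic acid-induced genes, and compared with surgery averaged over diets. Over all genes 23.4% were higher and 24.7% lower in that comparison. Of 6 retinoid carriers tested among 10 listed, 3 rose and 1 fell. Among those that rose were Fabp4 (log2 change 1.31), a fatty acid-binding protein of capillaries and fat, and Rbp7 (1.93), a cellular retinol-binding protein. Fabp5, which can carry retinoic acid to a different nuclear receptor, fell by 0.53 on the log2 scale. Of 15 enzymes tested among 19 listed, 3 rose and 4 fell. Sdr16c5 (0.90) and Aldh1a3 (0.72), which act in making retinal and retinoic acid, rose, as did Dgat1 (0.12), which can esterify retinol. Cyp26b1, which breaks down retinoic acid, fell by 1.88, Dhrs3, which turns retinal back to retinol, by 0.85 and the lipase Lipe by 0.59. Cyp26a1, whose promoter repeat is shown above, was at 4.56 ± 1.75 CPM with sham and 3.87 ± 1.81 CPM with Glenn surgery (SD over 15 libraries each), a log2 difference of -0.16 (adjusted p of 0.544 by edgeR). That average joins unlike values: Cyp26a1 fell by 0.98 on control food (adjusted p of 0.0312 by edgeR), and its change was 0.37 with deficient and 0.14 with excess food, neither past the threshold. The difference of its surgery change between diets did not pass (unadjusted p 0.0183, adjusted p of 0.763 by edgeR).

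The cofactor list gave 17 tested rows from 15 of its 16 genes, since Ep300 and Tbl1xr1 have 2 rows each, and 2 rows rose and 9 fell. Among them the histone deacetylase Hdac3 (0.26) rose, and the coactivators Ncoa3 and Kat2b and the ligand-dependent corepressor Nrip1 fell by 0.70, 0.38 and 0.44. Of 12 RXR partners tested among 13, 3 rose and 3 fell: Nr4a2 (0.97), Pparg (0.56) and Vdr (0.55) rose, and the thyroid hormone receptor Thrb, Ppard and Nr1h2 fell by 0.50, 0.26 and 0.11. Of 16 retinoic acid-induced genes, which include Rarb, Crabp2 and Stra6, 4 rose and 7 fell. Crabp2, Rarres2 (0.44) and Hic1 (0.32) were the highest by adjusted p, and Dhrs3, Hoxa5 (-0.93) and Cyp26b1 the lowest. The median log2 changes were 0.33 for carriers, -0.13 for enzymes, -0.16 for cofactors, -0.03 for RXR partners and -0.08 for induced genes, against -0.01 over all genes. For the induced genes that value joins medians of -0.38 on control, -0.07 on deficient and 0.15 on excess food. Over all genes those medians were -0.01, -0.01 and -0.02. Of the 16 induced genes 0 passed the test for a surgery effect that differs between diets. In the 6 diet comparisons 1 gene of these lists passed the threshold, Tgm2, a transglutaminase induced by retinoic acid. It passed on the excess against the control diet after Glenn surgery (log2 change 0.58, SE 0.12, edgeR adjusted p 0.0149). Calls in that comparison moved with single libraries and the series term, where Tgm2 was not followed. Cyp26b1 did not pass, but with excess food it was higher by 1.79 and 0.98 (log2) than with deficient and control food after sham surgery. After Glenn surgery these were 1.43 and 1.18. For excess against control food 8 of the 16 induced genes had an edgeR unadjusted p under 0.05 after Glenn surgery, and 3 after sham. Over all 16171 genes 2254 and 1788 did.

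**Figure D3:**
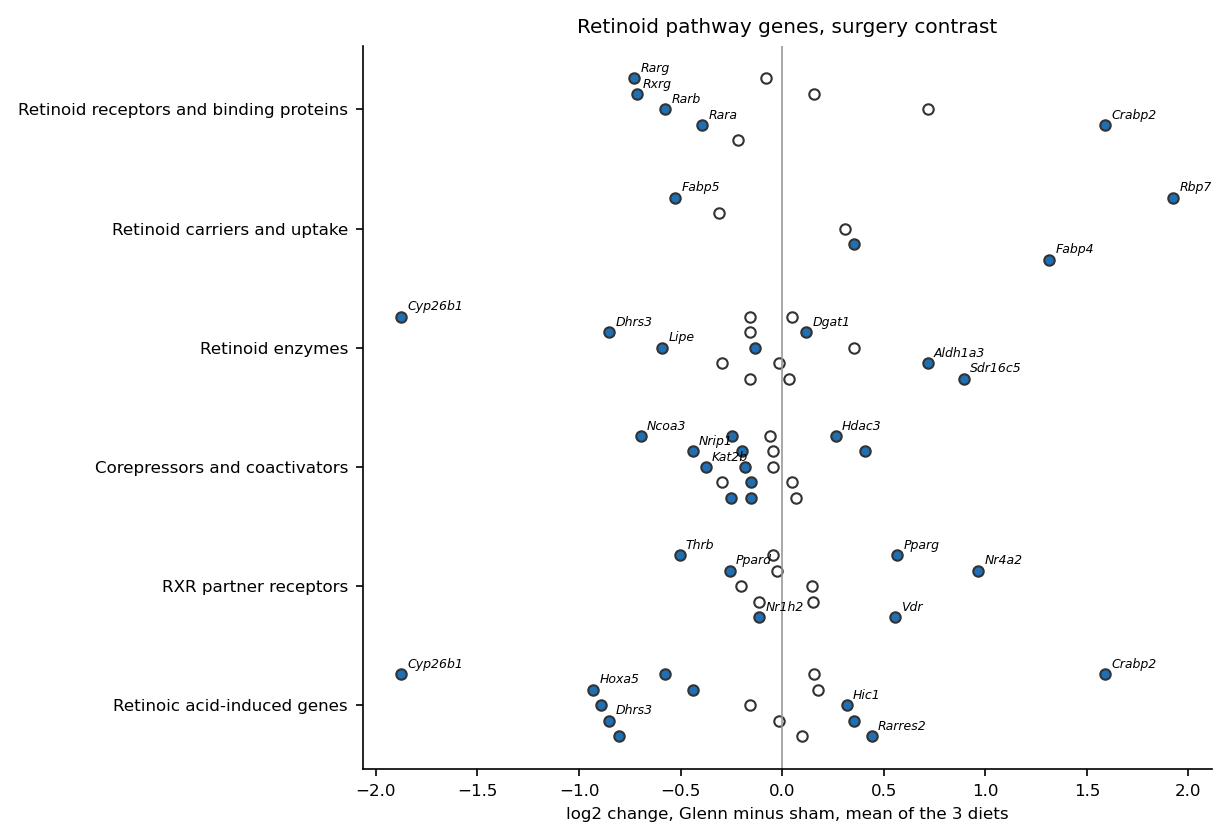
Fitted log2 change with Glenn surgery, averaged over diets, of each tested gene of the 9-gene set and of the 5 pathway lists, 1 point per row and list. Filled points passed an edgeR adjusted p of 0.05. Labels mark the members that passed and the genes the text names from each list by smallest adjusted p. Genes of a list lie on both sides of 0, and Rarb, Crabp2 and some other genes are in 2 lists.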

How the data were processed

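RNA sequencing libraries of 30 samples were analysed, 5 in each of 6 groups. Per the labels' protocols, a PureLink kit gave the RNA and SMART-Seq v4 chemistry, for low input, the sequencing libraries. The authors deposited 1 table of estimated counts per gene. Per the submitters' processing notes, FastQC, Trim Galore, STAR, Salmon and Picard were used with the builds mRatBN7.2 and rn7; versions, annotation release and strand setting are not given in the sources used here. Of the deposited values 13.6% were not whole, and all were rounded. Without a stated strand setting, reads of Rara, Rarg and Stra6 cannot be told from those of long noncoding RNAs whose spans overlap theirs in RefSeq (GRCr8).

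Low genes were dropped with filterByExpr in edgeR 4.0.16 (count of at least 10, total of at least 15), and TMM factors were 0.938 to 1.06. The robust quasi-likelihood fit held 6 group means and the library series. Benjamini-Hochberg adjustment ran over 16171 genes. Alternatives were no series term, series A only, RT1-CE16 level alone or with sex (high above 100 CPM, male above 10 CPM of Ddx3y), DESeq2 size factors, DESeq2 1.42.0, limma voom 3.58.1, no filter, only the groups compared, a replicate block and leaving out each library. RT1-CE16-low libraries alone were chosen after seeing the data. The fit was also run on simulated counts drawn without a series effect, which cannot check the series term.

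Libraries of a group differed by 21.2 to 126 chi-square per degree of freedom (60 pairs), far beyond sampling noise. Pathway lists named up to 3 genes that rose and 3 that fell, by smallest adjusted p (some are not reported here), and each member its 2 most correlated genes in log2(CPM + 1) with a mean of at least 1 CPM. Members and lists were chosen with earlier results of these data known. No length table was used, so levels are not compared between genes. The table has 0 columns left out. R 4.3.3 and matplotlib 3.10.9 were used.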

Additional observations from a re-analysis of the deposited data

Results flagged for a closer look

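Each gene was examined in each group of 5 libraries for a library far from the other 4. The measure divides the distance from that library to the next one by the range of all 5, and its limit is 0.71. Of 54 sets, 6 passed it. Chance alone gives 1 in 20 sets, or 2.7, and the share over all genes tested, 6.66% of 97026 sets, gives 3.6.

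For Rara, Glenn excess replicate 1 was highest at 80.2 CPM against 62.5 to 66.5 CPM (0.773). For Rarb, Glenn deficient replicate 2 was highest at 42.7 CPM against 30.4 to 33.5 CPM (0.749). For Rxra, sham deficient replicate 1 was highest at 36.4 CPM against 29.4 to 31.3 CPM (0.733), and Glenn deficient replicate 3 was lowest at 11.8 CPM against 29.7 to 34.7 CPM (0.78). For Rxrb, sham control replicate 3 was lowest at 71.0 CPM against 80.1 to 82.2 CPM (0.813). For Crabp1, Glenn control replicate 1 was lowest at 0 against 0.400 to 0.450 CPM (0.888).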

How the results depend on the processing

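The averaged surgery changes of Rara, Rarb, Rarg, Rxrg and Crabp2 kept direction and stayed past the threshold in the 10 alternatives run for them. The same held without any 1 of the 30 libraries. Of the 9 genes, 5 to 7 changed on average in the alternatives and 5 to 6 without 1 library. In the alternatives 32.4% (RT1-CE16-low libraries) to 50.7% (limma voom) of all genes changed. Without 1 Glenn control or Glenn deficient library the share was 45.8% to 47.2%. The diet comparisons and the interaction gave 0 of 9 in all settings run. Numbers of genes changed by diet moved. Among RT1-CE16-low libraries 1 changed on control, 0 on deficient and 1 on excess food (9.46%, 14.5% and 13% of all genes). With series A only, 0 changed on deficient and 2 on excess food (15.2% and 13.6% of all), and with only the groups compared 2 changed on excess food (12.5% of all). These fits hold fewer libraries. On the deficient diet Rxra ran from -0.24 (without Glenn deficient replicate 1) to 0.031 (without Glenn deficient replicate 3), and Rxrb from -0.070 (without sham deficient replicate 2) to 0.0079 (without sham deficient replicate 4). Rxrb there was 0.0024 with no series term, 0.017 in series A and 0.013 among RT1-CE16-low libraries. The averaged Stra6 change was -0.21 in series A and -0.28 among RT1-CE16-low libraries. Other causes were not tested.

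Replicate numbers did not pair the libraries: of 75 pairs with the same number, 22 had correlated deviations over 0.1 (range -0.389 to 0.359), and 5 libraries were closest to their own number. With the replicate block, 4 of the 9 genes changed with surgery on each diet (25.9%, 27.9% and 21% of all genes on control, deficient and excess food) and 6 on average (48.2% of all), adding Crabp2 on the deficient diet (1.22, edgeR adjusted p 0.0171) and Rxra on average (-0.25, edgeR adjusted p 0.0398). The averaged Rxra change also passed with limma voom (-0.22) and with RT1-CE16 and sex (-0.22). Crabp1 and Stra6 had at most 32 counts per library. The exact permutation test set aside for genes below the filter was not needed.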
